A study of Homo sapiens with 15 samples.

Results

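NDRG1 (N-myc downstream regulated 1) is described here through the chromatin loops of its promoter, measured by H3K27ac and H3K4me3 HiChIP during androgen treatment. Its loops were taken as all deposited anchor pairs with a 1 kb anchor overlapping a window of 2.5 kb to each side of its canonical transcript start, each pair counted once. This gave 17 loops of the 505995 different loops in the series. Dihydrotestosterone (DHT), the potent natural androgen, was given to LNCaP, an established prostate cancer cell line that responds to androgen. Its cultures had first spent 3 days in charcoal-stripped serum and RPMI free of phenol red. The groups were 0 m (EtOH vehicle) and 30 m, 4 h, 16 h and 72 h of 10 nM DHT, all in LNCaP with no other alteration labelled. In HiChIP, DNA ends that lie close together in fixed nuclei are joined, fragments with a given histone mark are enriched by antibody, and the joined ends are sequenced as read pairs. Each time point had 2 labelled H3K27ac replicates and 1 labelled H3K4me3 replicate, 15 samples in all, but the contact frequency was deposited as a single value for each loop at each time in each mark, in 10 tables. No value therefore has a replicate error, and the 95% intervals below cover the counting of read pairs only.

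NDRG1 encodes a cytoplasmic protein of the NDRG family, named after its repression by N-Myc, and it is known as a stress-responsive gene that is induced by hypoxia and by androgen in prostate cells. The protein is phosphorylated by SGK1 and GSK3B and has been studied as a suppressor of metastasis. H3K27ac marks active enhancers and promoters and H3K4me3 marks active promoters, so that a HiChIP contact depends both on how often the anchors meet and on how much of the mark they carry, and these cannot be told apart here. Nor can more cells with a contact and more contact per cell.

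The canonical transcript (ENST00000323851) lies on the minus strand at chr8:134249418-134309495 of GRCh37, with its start at 134309495, so that positions with larger coordinates are upstream. All 17 loops shared the same promoter anchor, chr8:134307001-134308000, inside the transcript close to its start. By side, 2 partner anchors lay within the NDRG1 transcript, 6 lay downstream of it and 9 upstream of its start. No partner overlapped the promoter of another protein-coding gene, and 9 of them were intergenic. Loop lengths ran from 5 kb to 525 kb. Of the 17 loops, 13 came from the H3K4me3 loop set alone, 2 from the H3K27ac set alone and 2 from both, while contact in both marks was deposited for every loop. Among the 16266 protein-coding promoters with loops the median was 20 loops, and 43.96% had fewer than NDRG1.

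Markers of the cell line were compared with its label through their promoter loops. All 5 luminal prostate genes examined (KLK3, KLK2, HOXB13, TMPRSS2 and FOXA1) had loops, while the basal genes KRT5, KRT14 and TP63 had 0. Of all 19894 protein-coding promoters 16266 had loops, so the luminal count by itself does not set these genes apart. Of the blood genes, PTPRC and HBB had 0 loops and CD3E had 5, and the liver gene ALB had 2.

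Summed H3K4me3 contact of NDRG1 was more than doubled at 16 h and 72 h of DHT, while summed H3K27ac contact was highest at 16 h and at 72 h was near its level at 0 m. Summed over the 17 loops, H3K4me3 contact at 0 m was 18.6 (95% interval 14.4 to 23.7, 66 read pairs), followed by 25.3 at 30 m (19.8 to 31.7, 74 read pairs) and 22.3 at 4 h (19.8 to 25.1, 282 read pairs). It reached 42.7 at 16 h (37.3 to 48.7, 221 read pairs) and 42.6 at 72 h (36.2 to 49.9, 155 read pairs). The intervals at 16 h and 72 h lay above those of the earlier time points. In order, 16 h and 72 h did not differ beyond counting error, 72 h exceeded 30 m by 0.75 on the log2 scale (0.34 to 1.17), and neither 30 m over 4 h nor 4 h over 0 m exceeded counting error.

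Summed H3K27ac contact was 18.5 (14.2 to 23.7, 63 read pairs) at 0 m, 18.0 (14.6 to 21.9, 100 read pairs) at 30 m and 24.1 at 4 h (19.9 to 29.0, 113 read pairs). It was 29.5 at 16 h (24.8 to 34.8, 139 read pairs) and 17.6 at 72 h (13.7 to 22.4, 67 read pairs). The order was 16 h, 4 h, 0 m, 30 m and 72 h, and no level differed from the next in this order beyond counting error. The interval at 16 h did lie above those at 0 m, 30 m and 72 h. Contact levels of the 2 marks were scaled separately by the authors and are not compared with each other.

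**Figure D1:**
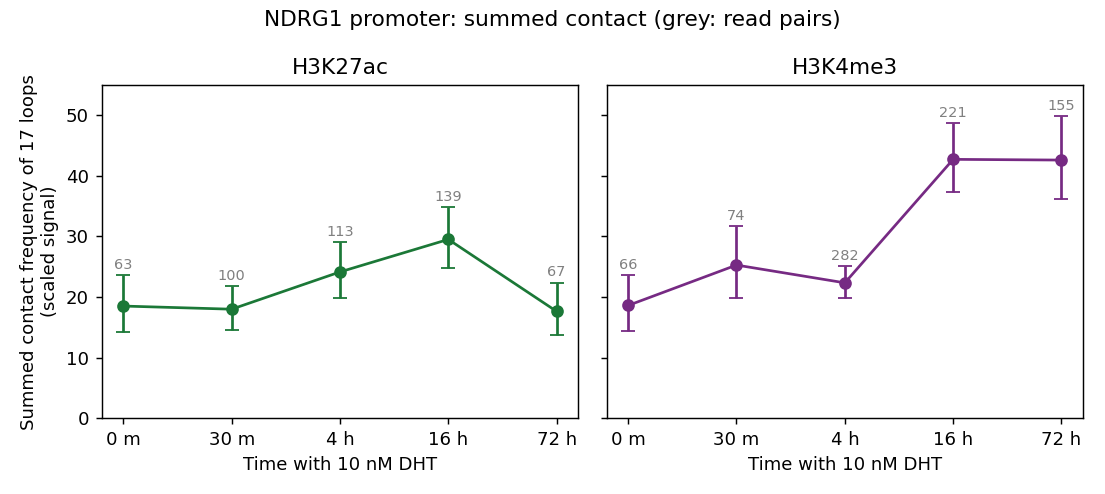
Summed contact frequency of the 17 NDRG1 loops (scaled signal, y axis) at the 5 time points (x axis) for H3K27ac (left) and H3K4me3 (right), with 95% counting intervals as bars and read pairs in grey. H3K4me3 contact stood at 42.7 at 16 h and 42.6 at 72 h against 18.6 at 0 m, and H3K27ac contact was highest at 16 h, at 29.5.

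As log2 changes from 0 m, NDRG1 H3K4me3 contact had values of 0.44 (-0.06 to 0.94) after 30 m, 0.26 (-0.13 to 0.67) after 4 h, 1.20 (0.80 to 1.62) after 16 h and 1.19 (0.77 to 1.63) after 72 h. H3K27ac contact had values of -0.04 (-0.51 to 0.44), 0.38 (-0.07 to 0.85), 0.67 (0.23 to 1.13) and -0.07 (-0.59 to 0.45) in the same order. Beyond counting error, NDRG1 was thus higher than at 0 m at 16 h in both marks and at 72 h in H3K4me3. With the 4 loops of the H3K27ac set alone, however, the H3K27ac change at 16 h was -0.36 (-1.56 to 0.85). All 4 changes of a mark share its 0 m table.

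The contact of all loops together also moved between tables, by log2 0.09, 0.07, 0.25 and 0.17 in H3K27ac and by 0.02, 0.22, 0.14 and -0.13 in H3K4me3, in order of time. Relative to these totals, the H3K4me3 change of NDRG1 was 0.42, 0.04, 1.06 (0.66 to 1.48) and 1.32 (0.90 to 1.76) at the 4 time points. Its H3K27ac change relative to the totals was -0.13, 0.31, 0.43 (-0.01 to 0.88) and -0.24. The H3K4me3 differences at 16 h and 72 h held on both scales, and the H3K27ac difference at 16 h was within counting error once the totals were set equal.

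The changes of NDRG1 were placed among those of all protein-coding promoters with at least 100 read pairs over both tables compared. In H3K4me3 at 72 h, NDRG1 had the highest log2 change of 10841 promoters, whose median was -0.17, and it was among the 0.655% that were at least 1.5-fold higher than at 0 m. In H3K4me3 at 16 h it ranked 6 of 11351, with a median of 0.12, and 2.8% of these promoters were at least 1.5-fold higher. The ranks carry the counting error of NDRG1 itself, since 21 other promoters at 72 h and 58 at 16 h had changes above the lower bound of its interval. At 30 m it stood at rank 228 of 10645 promoters and did not reach 1.5-fold, as 0.46% did. With the totals set equal, NDRG1 stayed at least 1.5-fold higher at 16 h and 72 h, as did 1.02% and 1.63% of promoters. At 4 h, where 14.3% of promoters (5.32% with equal totals) were at least 1.5-fold higher, NDRG1 was not, and its change of 0.26 was close to the median of 0.23.

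The 5 promoters above NDRG1 in H3K4me3 at 16 h, named after their values were seen, were SNAI2 (log2 change 1.80), TMPRSS2 (1.61), KLK3 (1.58), KLK2 (1.45) and BHLHA15 (1.37). TMPRSS2, KLK3 and KLK2 are androgen-induced prostate genes, and SNAI2 and BHLHA15 encode transcription factors. SNAI2 and BHLHA15 had 31 and 21 read pairs at 0 m and reached the minimum of 100 only through their high counts at 16 h, so their places above NDRG1 are uncertain. At 72 h the H3K4me3 changes of KLK3, KLK2 and TMPRSS2 were 0.02, -0.07 and 0.22, against 1.19 for NDRG1, and that of KLK2 rested on fewer than 100 read pairs. Whether these differences between promoters exceed the spread between cultures was not tested.

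In H3K27ac the place of NDRG1 was less extreme. At 16 h it was at least 1.5-fold higher, as were 19.9% of 9861 promoters, and 85.2% of them had a smaller change. With the totals set equal, its change of 0.43 no longer reached 1.5-fold, and 8.23% of promoters did. At 4 h NDRG1 did not reach 1.5-fold, which 2.09% of 10029 promoters did, though 91.9% had a smaller change. At 30 m and 72 h, when 19.7% of 10348 and 18.9% of 9567 promoters were at least 1.5-fold higher, NDRG1 was not among them and only 19.4% and 26.0% of promoters had a smaller change. The median promoter changed by 0.29, 0.04, 0.20 and 0.21 at the 4 time points, so NDRG1 was above the median at 4 h and 16 h and below it at 30 m and 72 h.

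**Figure D2:**
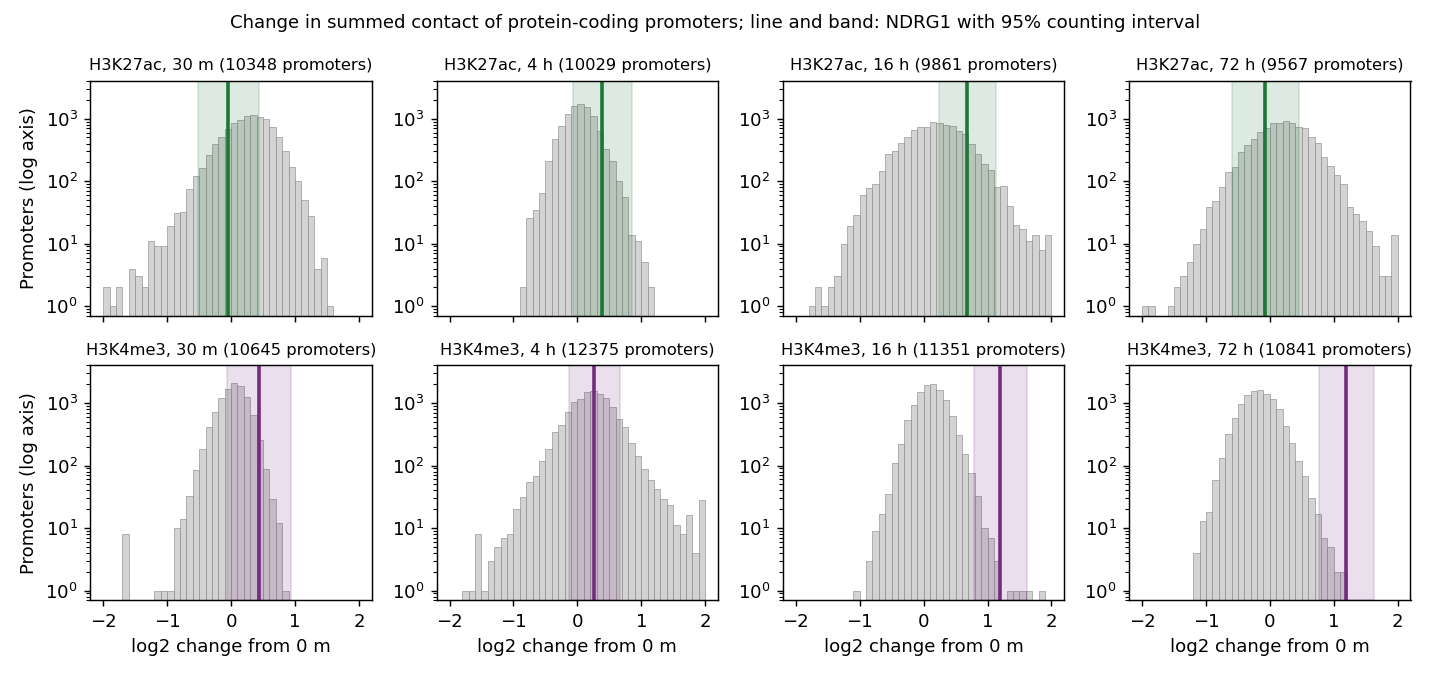
Log2 change in summed contact from 0 m (x axis) of protein-coding promoters with at least 100 read pairs over both tables (y axis, number on a log axis), by mark and time point. The coloured line is NDRG1 and the band its 95% counting interval, and changes beyond 2 in size are drawn in the outermost bars. In H3K4me3 NDRG1 stood at 1.20 at 16 h and 1.19 at 72 h, at the right edge of the distribution, and in H3K27ac inside it.

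By level, NDRG1 was an ordinary promoter. At 0 m its summed contact was above 48.9% of the 16266 promoters with loops in H3K27ac and above 37.3% in H3K4me3. At 16 h these shares were 60.8% and 51.7%, and at 72 h they were 46.1% and 56.8%.

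Both loops within the gene are described first. The loop to chr8:134262001-134263000, 45 kb downstream of the promoter anchor at exon 10 of the canonical transcript, had the highest H3K27ac contact in every table. This loop came from the H3K4me3 loop set alone. In order of time its H3K27ac contact was 5.58, 6.30, 5.77, 9.98 (7.33 to 13.3) and 6.58, and its H3K4me3 contact was 1.69, 4.44, 4.28, 4.06 and 3.02. This loop held 30.2%, 35.0%, 23.9%, 33.8% (exact binomial interval 26.0% to 42.3%) and 37.3% of the H3K27ac read pairs of NDRG1. Its mean H3K27ac contact exceeded that of 98.2% of the 7988 loops of the same length in the series. From 0 m to 16 h it changed by 0.84 in H3K27ac (0.04 to 1.69), and in H3K4me3 it changed by 1.34 at 4 h (0.12 to 2.85). With the totals set equal, these changes were 0.59 (-0.21 to 1.44) and 1.11 (-0.10 to 2.62), within counting error.

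In the same gene, the contact with chr8:134287001-134288000, 20 kb downstream in an intron, had H3K27ac contacts of 2.06, 1.44, 1.71, 1.70 and 1.32 in order of time. Its H3K4me3 contacts were 2.26, 3.07, 1.66, 4.45 and 4.67. No change from 0 m was beyond counting error in either mark, and in H3K4me3 both late values were the highest. Among the 11584 loops of the same length, 69.9% had a lower mean contact in H3K4me3 and 44.3% in H3K27ac.

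Downstream of NDRG1 lies CCN4, which encodes a secreted matricellular protein of the Wnt pathway. The loop to chr8:134227001-134228000, 80 kb away in an intron of CCN4, had H3K27ac contacts of 0.588 (0.0712 to 2.12, 2 read pairs), 1.98, 2.78, 3.82 (2.26 to 6.04, 18 read pairs) and 2.37 in order of time. Its H3K4me3 contacts were 3.38, 2.73, 2.14, 5.03 and 3.30. The H3K27ac change at 16 h was 2.70 with a wide interval (0.64 to 5.85), and at 4 h it was 2.24 (0.10 to 5.43). This loop, too, came from the H3K4me3 loop set alone. In H3K4me3 this loop was already present at 0 m, as the strongest of NDRG1 in that table with 18.2% of its read pairs.

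A weak loop joined NDRG1 to chr8:134247001-134248000, 60 kb downstream in the stretch between CCN4 and the end of NDRG1, with H3K27ac contacts of 0.882, 0.360, 0.855, 0.637 and 1.05 and H3K4me3 contacts of 0.846, 1.37, 1.11, 1.35 and 1.37 in order of time. It rested on at most 4 read pairs per H3K27ac table, and no difference was detectable at this depth.

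Upstream of NDRG1 is an intergenic stretch that ends at ST3GAL1, a sialyltransferase gene. The loop to chr8:134312001-134313000, 5 kb upstream in the adjacent bin, lies in an intron of longer NDRG1 transcripts. Its H3K4me3 contact was 1.97 (0.794 to 4.07), 2.73, 2.46, 4.06 and 7.70 (5.11 to 11.1) from 0 m to 72 h, and its H3K27ac contact was 1.47, 1.44, 2.99, 2.34 and 2.11. It had the highest mean H3K4me3 contact of the 17 loops and held 10.6%, 10.8%, 10.99%, 9.502% and 18.1% of the H3K4me3 read pairs in order of time. The 72 h value lay above the 0 m value by 1.96 (0.73 to 3.40). Among the 28409 loops of the same length, 67.2% had a lower mean contact in H3K4me3 and 11.2% in H3K27ac.

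The loop to chr8:134337001-134338000, 30 kb upstream, had H3K4me3 contacts of 0.564 (2 read pairs), 1.02, 2.77 (35 read pairs), 3.29 and 3.30 in order of time. Its H3K27ac contacts were 1.18, 1.08, 2.78 and 1.91 from 0 m to 16 h and 0 at 72 h, where a count of 0 allows a contact of up to 0.789. In H3K4me3 it was above its 0 m value beyond counting error at 4 h (2.30, 0.34 to 5.40), 16 h (2.54, 0.47 to 5.70) and 72 h (2.55, 0.38 to 5.75).

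Further out, the loop of NDRG1 to chr8:134352001-134353000, 45 kb upstream, had H3K4me3 contacts of 1.41, 1.37, 1.27, 3.09 and 1.92 and H3K27ac contacts of 0.294, 0.360, 0.641, 0.849 and 0.263 in order of time. Its neighbour at chr8:134367001-134368000, 60 kb upstream and present in both loop sets, had H3K4me3 contacts of 0.846, 1.37, 1.03, 1.35 and 2.47 and H3K27ac contacts of 1.18, 2.16, 1.71, 1.27 and 1.05. For both loops the counting intervals of every change from 0 m included 0.

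At chr8:134447001-134448000, the NDRG1 loop of 140 kb had H3K4me3 contacts of 0.282 (1 read pair), 0.683, 0.713, 2.32 (12 read pairs) and 4.67 (17 read pairs) in order of time. Its H3K27ac contacts were 0.588, 0.180, 1.07, 1.49 and 0.263. With 1 read pair at 0 m, the H3K4me3 change at 72 h was 4.05 with an interval from 1.38 to 9.44. At 16 h it was 3.04 (0.28 to 8.46), and both changes stayed beyond counting error with the totals set equal.

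The most distant upstream loop of NDRG1, 160 kb to chr8:134467001-134468000 at exon 10 of ST3GAL1, had H3K27ac contacts of 1.76, 0.540, 0.855, 2.97 and 1.32 and H3K4me3 contacts of 1.13, 2.05, 1.27, 3.29 and 2.20. In both marks its highest value was at 16 h. Its mean contact exceeded that of 87.8% of the 4546 loops of this length in H3K27ac and of 88.4% in H3K4me3.

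The other 7 loops of NDRG1 had mean contacts between 0.0425 and 0.537 in H3K27ac and between 0.236 and 1.57 in H3K4me3. The H3K4me3 change of the loop 130 kb upstream was beyond counting error at 16 h (interval 0.13 to 8.34), but not with the totals set equal. These loops include the 3 longest, of 395 kb, 425 kb and 525 kb, of which the first 2 reach exons of TG, the thyroglobulin gene. Over all 17 loops, 12 had read pairs in every H3K27ac table and 15 in every H3K4me3 table.

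**Figure D3:**
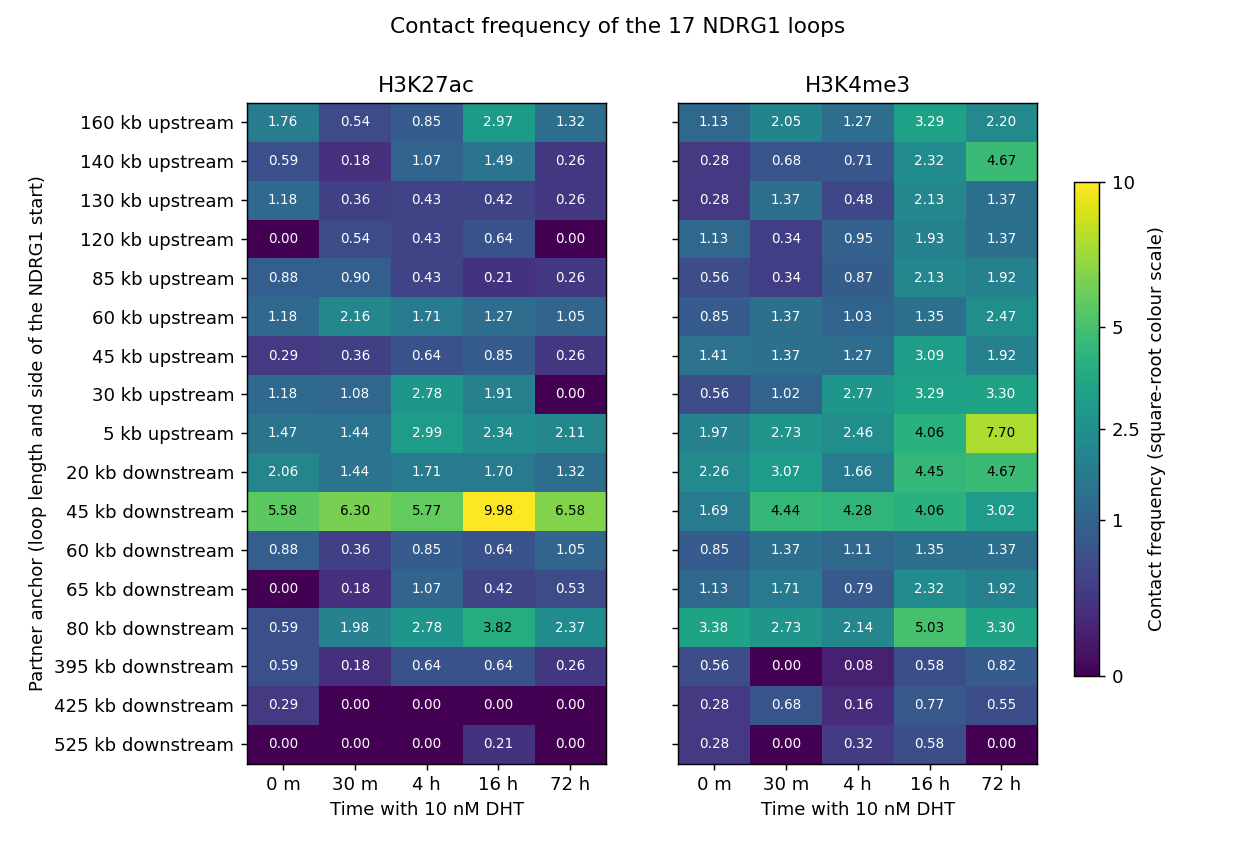
Contact frequency of each of the 17 NDRG1 loops (y axis, by loop length and side of the NDRG1 start) at the 5 time points (x axis) in H3K27ac (left) and H3K4me3 (right), with the value in each cell and a square-root colour scale. The loop 45 kb downstream has the highest H3K27ac value in each column, up to 9.98 at 16 h, and the highest H3K4me3 value is 7.70, 5 kb upstream at 72 h.

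Across the loops, the late H3K4me3 values were spread widely. At 16 h, 17 of 17 loops had a higher H3K4me3 contact than at 0 m, as did 51.5% of the 505995 loops of the series, and 3 did so beyond their own counting interval (2 with the totals set equal), as did 1.29% (0.798%). At 72 h, 15 were higher and 2 lower, against 38.5% and 48.7% of all loops, with 3 higher beyond counting error, against 0.573%. In H3K27ac at 16 h, 12 were higher and 5 lower, against 42.7% and 48.1%, and 2 were higher beyond counting error (1 with the totals set equal), against 3.39% (2.10%). At 72 h 5 were higher and 10 lower in H3K27ac, against 41.2% and 49.4%. Some of these directions depended on the scale. With the totals set equal, the 395 kb loop was lower at 16 h in H3K4me3 (-0.10) and in H3K27ac (-0.13). The loop 60 kb upstream was then also lower in H3K27ac at 16 h (-0.13), and that 80 kb downstream was higher in H3K4me3 at 72 h (0.09). The 17 loops share an anchor, and all loops include many with few read pairs. The highest of the 5 H3K4me3 values fell at 16 h in 9 loops, at 72 h in 7 and at 30 m in 1, against 21.7%, 17.8% and 17.6% of all loops. In H3K27ac it fell at 0 m in 3, at 30 m in 2, at 4 h in 4, at 16 h in 7 and at 72 h in 1, against 23.2%, 18.2%, 21.6%, 16.1% and 18.7%.

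The upstream side, with 9 of the 17 loops, carried most of the late H3K4me3 contact. Summed over the 9 upstream loops, H3K4me3 contact was 8.18 (5.48 to 11.7), 11.3, 11.8, 23.6 and 26.9 (21.9 to 32.8) from 0 m to 72 h, changes of 1.53 (0.93 to 2.17) at 16 h and 1.72 (1.11 to 2.37) at 72 h. Over the 6 downstream loops it was 6.49, 6.49, 4.60, 10.6 and 7.97, changes of 0.71 (-0.01 to 1.48) at 16 h and 0.30 (-0.54 to 1.15) at 72 h. Over both loops within the gene it was 3.95, 7.51, 5.94, 8.51 and 7.70, changes of 1.11 (0.21 to 2.09) at 16 h and 0.96 (-0.01 to 2.002) at 72 h. With the totals set equal, this change at 72 h was 1.09 (0.12 to 2.13), beyond counting error. The difference between the sides was not tested.

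In H3K27ac the sides had another order. The 6 downstream loops summed to 2.35 (8 read pairs), 2.70, 5.34, 5.73 and 4.21 from 0 m to 72 h, and their change at 16 h was 1.29 (0.11 to 2.63). The 9 upstream loops summed to 8.52, 7.56, 11.3, 12.1 and 5.53, with changes of 0.51 (-0.16 to 1.20) at 16 h and -0.62 (-1.51 to 0.24) at 72 h. Both loops within the gene summed to 7.64, 7.74, 7.48, 11.7 and 7.89. Apart from the downstream loops at 16 h, these changes from 0 m were within counting error, and so was that one with the totals set equal, at 1.04 (-0.14 to 2.39).

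**Figure D4:**
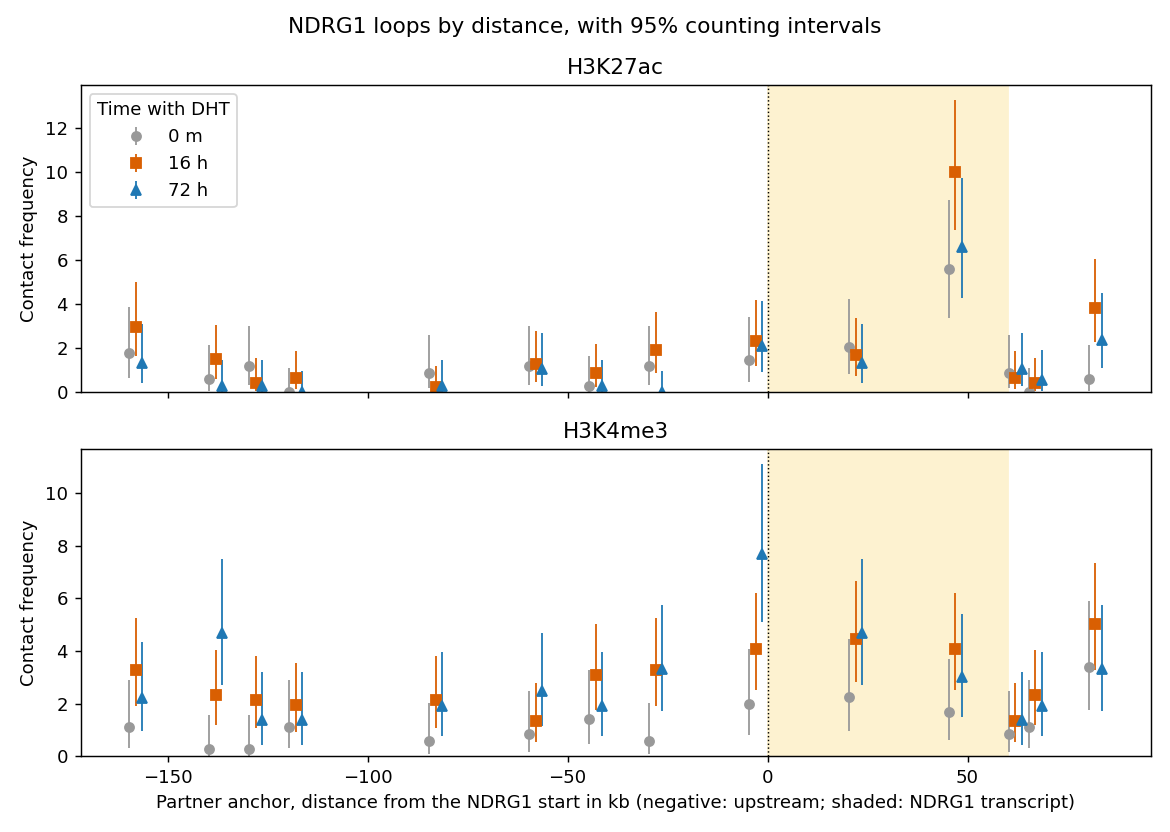
Contact frequency (y axis) of the 14 NDRG1 loops of at most 200 kb by the distance of the partner anchor from the NDRG1 start in kb (x axis, upstream negative, shaded where the transcript lies), at 0 m, 16 h and 72 h, with 95% counting intervals. Points of a loop are shifted sideways to keep them apart. In H3K4me3 the 72 h points reach 7.70 at -3.0 kb, for the loop of 5 kb. They reach 4.67 at -138.0 kb, for the loop of 140 kb, and at 22.0 kb, for the loop of 20 kb.

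Loops were also grouped by length. The only NDRG1 loop under 20 kb, 5 kb upstream, changed in H3K4me3 by 1.04 (-0.25 to 2.52) at 16 h and 1.96 at 72 h. The 9 loops of 20 to 100 kb changed by 1.09 (0.60 to 1.61) at 16 h and 0.91 (0.38 to 1.47) at 72 h, while all 122695 loops of these lengths changed by 0.03 and -0.10. The 7 loops of 100 kb or more changed by 1.55 (0.70 to 2.51) and 1.48 (0.57 to 2.47), and all 266662 loops of 100 to 600 kb by 0.16 and -0.02. In these 2 longer classes NDRG1 lay above the series at both time points. In H3K27ac the 7 long loops were lower at 30 m, by -1.29 (-2.61 to -0.04), against -0.12 for all loops of these lengths. That change rested on 15 read pairs at 0 m and 10 at 30 m. The 9 loops of 20 to 100 kb were higher in H3K27ac at 16 h, by 0.72 (0.19 to 1.27), against 0.04 for all loops of that class. Under equal totals their change was 0.47 (-0.06 to 1.02), within counting error.

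The bin next to the promoter bin, inside the first part of the transcript, had 9 loops of its own that the promoter window does not take in. Their summed H3K27ac contact, 27.03, 28.2, 32.9, 35.2 and 24.5 from 0 m to 72 h, was above that of the 17 promoter loops in every table. Their summed H3K4me3 contact was 5.36, 6.83, 5.39, 8.12 and 6.87, below that of the promoter loops in every table. The H3K4me3 changes at 16 h and 72 h were 0.60 (-0.21 to 1.46) and 0.36 (-0.56 to 1.30), both within counting error, and the H3K27ac change at 16 h was 0.38 (0.01 to 0.77), or 0.14 (-0.24 to 0.52) with the totals set equal. The neighbouring bin on the upstream side had 3 loops, and the loop that it shares with the promoter bin, described above, held 7 of its 11 H3K4me3 read pairs at 0 m and 28 of 30 at 72 h. The difference between the bins was not tested.

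Of the 8 other protein-coding genes with a start within 1 Mb of that of NDRG1, 5 had promoter loops. ST3GAL1 had 116 loops and a summed H3K4me3 contact of 288, 346, 353, 329 and 330 from 0 m to 72 h, changes of 0.19 at 16 h and 0.20 at 72 h. DNAAF11, an assembly factor of ciliary dynein arms, changed by 0.31 and 0.09, and PHF20L1, a reader of methylated lysines, by 0.00 and 0.08. KCNQ3 and SLA had 3 loops and 1 loop with few read pairs, and TMEM71, TG and CCN4 had 0. In H3K4me3, 0 of the 3 neighbours with enough read pairs were 1.5-fold higher at 16 h or 72 h, against 2.8% and 0.655% of all promoters, so that little can be read from this count. In H3K27ac at 16 h, ST3GAL1 changed by 0.60 and DNAAF11 by -0.47. Of these 2, ST3GAL1 was thus 1.5-fold higher, as were 19.9% of all promoters. Under equal totals 0 of the 2 were higher, against 8.23%, and 1 was 1.5-fold lower, as were 1285 of 9861 promoters.

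In the NDRG family, NDRG2 and NDRG3 had 15 and 29 loops and NDRG4 had 1. The H3K4me3 changes of NDRG2 were 0.20 at 16 h and 0.01 at 72 h, and those of NDRG3 were 0.15 and -0.07. Their H3K27ac changes at 16 h were -0.22 and -0.19. Neither of these paralogs was 1.5-fold higher at any time point in either mark. Between 0.46% and 19.9% of all promoters were, by mark and time, so that little can be read from 2 genes. The -0.07 of NDRG3 turned positive once the totals were set equal, and the single NDRG4 loop had at most 12 read pairs per table.

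The list of androgen-induced genes, 17 genes that all had promoter loops, was compared with NDRG1. At 16 h, 8 of the 15 with enough read pairs were at least 1.5-fold higher in H3K4me3 against 2.8% of all promoters, with a median change of 0.74 against 0.12. In H3K27ac 6 of 15 were, against 19.9%, with a median of 0.53 against 0.20. With the totals set equal, 8 of 15 were in H3K4me3, against 1.02%, and 4 of 15 in H3K27ac, against 8.23%. The 8 in H3K4me3 included KLK3 and KLK2, which the authors describe as having many looped elements in common, so the genes counted are not all independent. KLK3, KLK2 and TMPRSS2 were above NDRG1 in H3K4me3 at 16 h, and SLC45A3, a prostate membrane transporter, was just below it at 1.15. At 72 h, 0 of 14 were 1.5-fold higher in H3K4me3 against 0.655%, with a median of -0.01 against -0.17. ABCC4, a drug efflux pump, had 0.30. Under equal totals, 0 of 14 were higher at 72 h, against 1.63%, and the median of the list turned positive, at 0.12. At 4 h the median H3K4me3 change of the list was 0.50, against 0.23 over all promoters. Of its genes, 12 of 15 were above the 0.26 of NDRG1, as were 5635 of 12375 promoters. At least 1.5-fold higher at 4 h were 6 of 15, against 14.3%, or 2 of 15 with the totals set equal, against 5.32%.

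Of the 16 hypoxia-induced genes listed, 14 had promoter loops, while ADM and DDIT4 had 0. In H3K4me3 0 of 12 with enough read pairs were 1.5-fold higher at 16 h, with a median of 0.15 against 0.12 over all promoters, or at 72 h, with a median of -0.11 against -0.17. Of all promoters 2.8% and 0.655% were, so these counts do not set the list apart. Under equal totals, 0 of 12 were at either time, against 1.02% and 1.63%, and the medians of the list were 0.011 and 0.014. At 4 h, when NDRG1 was not 1.5-fold higher, 5 of 14 of these genes were, against 14.3%, with a median of 0.51 against 0.23. With the totals set equal, 2 of 14 were, against 5.32%. In H3K4me3 at 16 h and 72 h, VEGFA, the endothelial growth factor, changed by 0.31 and -0.10. At these 2 times BNIP3, a mitophagy receptor, changed by -0.02 and -0.35, and LDHA, a glycolytic enzyme, by 0.44 and 0.08. In H3K27ac at 16 h, 4 of 13 were higher, against 19.9% of all promoters, and 2 of 13 with the totals set equal, against 8.23%. These 2 were BNIP3 (1.02 as deposited) and LOX (1.21), a matrix cross-linking enzyme, which had 41 read pairs at 0 m and reached 100 only through its higher count at 16 h.

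Of the regulators and kinases listed for NDRG1, 4 of 5 had loops and SGK1 had 0. EPAS1, a hypoxia-inducible factor, had H3K4me3 changes of 1.38, 0.81 and 0.69 after 4 h, 16 h and 72 h, with 29 read pairs at 0 m. At 16 h it reached 100 read pairs over both tables only through its higher count there, and at 72 h it did not. HIF1A had 0.57, 0.15 and 0.18, and GSK3B 0.26, 0.09 and -0.08. HIF1A and GSK3B were not 1.5-fold higher at these times, as 14.3%, 2.8% and 0.655% of all promoters were. EPAS1 was at 4 h and 16 h, also with the totals set equal, against 5.32% and 1.02% on that scale. Little can be read from so few genes. MYCN had 2 loops and too few read pairs.

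Promoters were also ranked by the likeness of their course to that of NDRG1, as Pearson's r over the 10 tables of the log2 summed contact after removing the median promoter of each table and the mean of each mark. Among 5536 promoters with at least 100 read pairs in every table, the most alike were ETFA (0.92), SCOC (0.92), EIF4E (0.91), MGST3 (0.90) and MPZL1 (0.89). The median r was -0.02, and 26 promoters had an r above 0.8. NDRG1 itself had as few as 63 read pairs in a table, so its course is less precise than theirs, and the 10 tables are shared by all promoters. At 16 h and 72 h their H3K4me3 changes were smaller than those of NDRG1, with values of 0.54 at 16 h and 0.43 at 72 h for ETFA and 0.35 and 0.15 for SCOC.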

How the data were processed

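The authors performed HiChIP for both marks on LNCaP at 5 time points of DHT, and 15 labelled samples were assigned to a mark and time point. The submitters' processing notes name Trim Galore 0.5.0, Bowtie2 and HiC-Pro 3.1.0, with hg19 as build. The deposited values are a contact signal per loop, which the authors scaled across times, separately for each mark, with the trimmed mean of M values. FitHiChIP was used for the loop sets, at a bin size of 5 kb and with each mark's time points merged. A share of 100% of the values in each table were whole multiples of its smallest value, within 0.01 of 1 read pair, and division by it gave the read pairs. The value of 1 read pair lay between 0.180 and 0.294 in H3K27ac and between 0.0792 and 0.342 in H3K4me3. Over all loops there were 2475168 to 4308555 read pairs per H3K27ac table and 2153262 to 10675614 per H3K4me3 table.

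No count test was possible, since each mark and time point has 1 value per loop. It is not stated in the sources used here whether both H3K27ac replicates entered a value. Contacts were given exact Poisson intervals, log2 changes exact conditional intervals for the ratio of read pairs, and shares exact binomial (Clopper-Pearson) intervals, all at 95% and for counting error only. A count of 0 was read as allowing up to 3 read pairs. Promoters were those of canonical transcripts of 19894 protein-coding genes in GENCODE 44 mapped to GRCh37, of which 16266 had loops. Promoters that share an anchor share its loops. Python 3.11.15, numpy 2.4.6, pandas 2.3.3, scipy 1.17.1 and matplotlib 3.10.9 were used, and the methods were tested on simulated data.

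The loops named singly were those among the 8 highest by mean contact in either mark, which gave 10 loops. Genes named were those within 1 Mb, the NDRG family, lists of androgen-induced genes, hypoxia-induced genes, regulators and kinases, cell type markers, and the 5 promoters most alike. NDRG1, these members and the lists were chosen with earlier results of these data known, and some genes of the lists are not reported here. Alternatives varied the scaling to equal totals, the promoter window, the minimum loop length, the loop set and the strongest loop. The neighbouring bins and the 30 m reference were added after the data were seen.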

Additional observations from a re-analysis of the deposited data

Results flagged for a closer look

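The changes of the 2 marks had opposite signs at 2 time points. At 72 h the summed contact of NDRG1 had a log2 change from 0 m of 1.19 in H3K4me3 and of -0.07 (-0.59 to 0.45) in H3K27ac, a gap of 1.26. At 30 m the changes were 0.44 and -0.04, a gap of 0.48. Both H3K27ac changes, and the H3K4me3 change at 30 m, were within counting error, and with a promoter window of 5 kb the H3K27ac change at 72 h was 0.03. Each mark has 1 value per time point, so the difference between the marks was not tested.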

How the results depend on the processing

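Over 11 results and 68 alternatives, 59 values stayed within the interval or limit of the value reported, 8 moved beyond it and 1, which had been beyond counting error, changed sign. With only the loops of the same mark's set, 4 loops in H3K27ac, the H3K27ac change at 16 h was -0.36, and the strongest loop, then the one 60 kb upstream, held 42.9% of the contact with 6 of 14 read pairs. With the 30 m table as reference, added after the data were seen, the H3K4me3 changes for 4 h, 16 h and 72 h were -0.18, 0.76 and 0.75. The number of loops was 28 with both neighbouring bins, also added later, and the strongest H3K27ac loop, then a 5 kb loop of the neighbouring bin inside the gene, held 22.9%. With a window of 1 kb it was 0, as no anchor overlaps that window, so no change or share could be computed. Equal totals kept the direction of all 8 changes.

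The shares of all promoters that were 1.5-fold higher at 30 m and 72 h in H3K27ac were 12.7% and 9.69% with equal totals, that at 4 h was 1.29%, and that at 30 m in H3K4me3 was 0.348%. The share of higher promoters among those changed at least 1.5-fold depended on the scaling. With equal totals it went from 90.5% to 79.9% at 30 m, 75.3% to 53.3% at 4 h, 80.6% to 38.7% at 16 h and 83.03% to 55.2% at 72 h in H3K27ac. In H3K4me3 it went from 89.0% to 50.5% at 4 h, 90.9% to 52.5% at 16 h and 10.4% to 47.2% at 72 h. The cause was not tested.

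No paired analysis was possible because the tables hold 1 value per loop and time point and carry no replicate number. The intervals leave out the spread between cultures, and the H3K4me3 tables differ several-fold in depth.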
